A study of Mus musculus with 6 samples.

Results

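Toll-like receptors recognise molecules of microbes and nucleic acids, and Myd88 is the adaptor protein that carries the signal of most of them. The members described here were the 9 receptor genes Tlr1 to Tlr9 and Myd88, 10 genes out of 18193 with a probe set of a single gene symbol on the array, chosen by symbol and not by any measured value. They had 16 probe sets among the 45037 that were not array controls. The samples were heart ventricles of 6 mice, 1 array per mouse. All 6 lacked Rag2 (RAG2KO), so the control animals were deficient in T and B lymphocytes too. The 3 Trex1 WT animals carried intact Trex1 and the 3 Trex1 KO animals lacked it. Trex1 is a nuclease that degrades DNA in the cytosol. The animals were 3 littermate pairs, lettered A to C, with 1 mouse of either genotype in a pair, and values are listed in that order throughout. The sources used here do not give age, strain or the design of the alleles. Ventricle tissue is a mixture of cells, so for every result fewer cells of a type and less RNA per cell cannot be told apart.

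The receptors fall into classes by where they meet their ligands. Tlr3, Tlr7, Tlr8 and Tlr9 work inside endosomes and bind nucleic acids: Tlr3 binds double-stranded RNA, Tlr7 and Tlr8 sense products of single-stranded RNA, and Tlr9 binds DNA with CpG motifs. Tlr1, Tlr2, Tlr4, Tlr5 and Tlr6 work at the cell surface on lipoproteins, lipopolysaccharide and flagellin. All of these except Tlr3 can signal through Myd88 to NF-kB, while Tlr3 uses the adaptor Ticam1 (TRIF), which Tlr4 uses as well. In the heart, cardiomyocytes, endothelial cells, fibroblasts and macrophages have been described to carry such receptors.

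Of the 10 genes, Tlr3 differed most by p-value between the genotypes, and it passed the threshold only when littermates were compared within pairs. Values below are MAS5 signals on a linear scale, and differences are Trex1 KO minus Trex1 WT of log2(signal + 16). An adjusted p is a Benjamini-Hochberg value over the 27022 probe sets tested with limma, with a threshold of 0.05. Without the pairing, 0 of the 10 genes were called higher and 0 lower, where 0.312% of the 12811 tested genes were called higher and 0.039% lower. At an unadjusted limma p under 0.05 there were 2 members (Tlr3 and Myd88), and 5.29% of tested genes. With littermate pairs as a replicate block, 1 member (Tlr3) was called higher, and 0.531% of tested genes. All 3 Trex1 KO arrays lay above all 3 Trex1 WT arrays for 3 members (Tlr3, Tlr9 and Myd88), which held for 5.03% of tested genes. For 0 members they lay below, a count for which the share of tested genes is not given here.

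Brightness limited what could be seen. The 27 probe sets for bacterial transcripts, which the tissue does not make, reached a signal of 69.8 at most. Tlr2, Tlr3, Tlr4, Tlr7 and Myd88 lay above that value on every array. Tlr1 and Tlr6 were too dim to enter the test, and Tlr6 lay below the highest bacterial control on every array. Signals of different probe sets depend on their probes, so levels of different receptors were not ranked.

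The starts of Tlr3 and Myd88 are shown because these were the members with the smallest p-values. The sequences are the 100 bases before an annotated start, from RefSeq on GRCm38.p6, 5′ to 3′ on the minus strand of each chromosome. They cover chr8:45410381-45410480 for Tlr3 and chr9:119340019-119340118 for Myd88. Capitals mark matches to the interferon-stimulated response element GAAANNGAAA (ISRE), to the shorter interferon regulatory factor core AANNGAAA, which every ISRE contains, or to the STAT-binding element TTCNNNGAA (GAS).
Tlr3: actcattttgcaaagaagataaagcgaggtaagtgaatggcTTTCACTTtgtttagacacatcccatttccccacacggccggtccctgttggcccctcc
Myd88: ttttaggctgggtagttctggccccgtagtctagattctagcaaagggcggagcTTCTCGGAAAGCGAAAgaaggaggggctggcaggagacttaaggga
Both strands of the 250 bases before each start were searched. The Tlr3 window held an IRF core on its reverse strand, 59 to 52 bases before the start, and no ISRE or GAS. The Myd88 window held an ISRE 40 to 31 bases before the start, overlapped by a GAS at 46 to 38. Windows were found for 8 of the 10 members, and those of Tlr4 and Tlr7 were not found. Tlr1 and Tlr6 had 2 windows each, which made 10 windows, and each of these genes had matches in 1 of its 2. An ISRE was matched in 2 members (Myd88 and Tlr6), an IRF core in 5 and a GAS in 3. Among 32851 promoter windows of the same length, 2.98% held an ISRE, 21.3% an IRF core and 7.02% a GAS. Those shares count single windows, whereas the member counts take a match in any window of a gene. These matches are descriptions of the letters only.

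Tlr3, the endosomal receptor of double-stranded RNA, was higher in the Trex1 KO animal of every pair. Its brightest probe set (1422782_s_at) read 349, 401 and 272 on the Trex1 WT arrays. On the Trex1 KO arrays it read 602, 718 and 541. The groups did not overlap, and the lowest Trex1 KO array lay above the highest Trex1 WT array. By pair the log2 differences were 0.76, 0.82 and 0.95. The overall difference was 0.84 (SE 0.18, 95% interval 0.44 to 1.24), a fold of 1.79, with a limma adjusted p of 0.2. Its unadjusted p of 0.000865 ranked 74 among the tested genes. With littermate pairs as a replicate block Tlr3 rose (SE 0.13, limma adjusted p = 0.0351).

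A second probe set of Tlr3 (1422781_at), listed under the same accession, was dimmer and went the same way. Its signals were 125, 136 and 82.1 in Trex1 WT and 259, 363 and 194 in Trex1 KO. The groups again did not overlap. The log2 difference was 1.13 (SE 0.27, limma adjusted p = 0.325, and 0.0714 with the replicate block). Trex1 KO B had the highest signal and Trex1 WT C the lowest on both probe sets. Leaving out any single array left the Tlr3 difference between 0.70 and 0.96, not passing without the block. With the Actb 3' to 5' ratio, a measure of RNA integrity, as a covariate it was 1.23 (limma adjusted p = 0.436). Its adjusted p ran from 0.0351 to 1 over all alternatives. That ratio was 2.09, 2.29 and 1.8 in Trex1 WT and 1.66, 1.6 and 1.68 in Trex1 KO (exact permutation p = 0.1, two-sided, the smallest possible with 3 arrays against 3). Its part in the result was not tested.

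**Figure D1:**
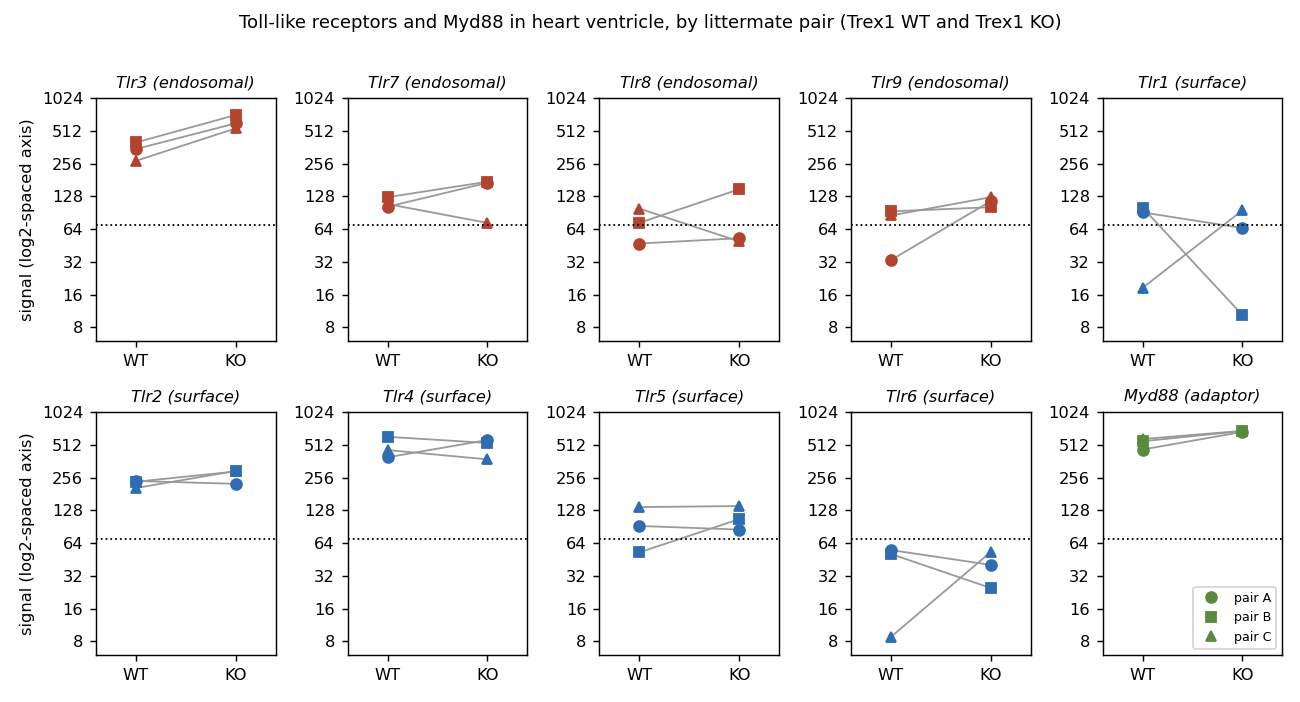
Signal of the brightest probe set of each member on a log2-spaced axis, with a point per array and a line joining the littermates of each pair; the dotted line is the highest bacterial control signal, 69.8. All 3 lines of Tlr3 rise by a like amount, from 272 to 401 in Trex1 WT to 541 to 718 in Trex1 KO, while for every receptor other than Tlr3 and Tlr9 the pairs went in different directions.

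The other endosomal receptors did not pass the test, with or without the block. Tlr9, the receptor of CpG DNA, had signals of 33.3, 93.4 and 85.6 in Trex1 WT and of 116, 102 and 126 in Trex1 KO. All 3 Trex1 KO arrays lay above the Trex1 WT arrays, but the pairs were uneven, with log2 differences of 1.43, 0.11 and 0.48, and Trex1 WT A stood low. The overall difference was 0.67 (95% interval -0.10 to 1.44, limma adjusted p = 0.955). It was 0.31 without Trex1 WT A, 0.30 without pair A and 0.44 with a pseudocount of 64. These signals were near the highest bacterial control, and 5 of 6 arrays lay above it.

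Tlr7, a sensor of single-stranded RNA, had signals of 103, 126 and 109 in Trex1 WT and of 171, 175 and 73.2 in Trex1 KO. It was higher in pairs A and B (0.65 and 0.43) and lower in pair C (-0.49), and the groups overlapped. The overall log2 difference was 0.20 (95% interval -0.51 to 0.91, limma adjusted p = 0.972). The other probe sets of Tlr7 lay below the highest bacterial control on every array and differed by 1.07 and -0.35, in opposite directions. Tlr8, which like Tlr7 lies on chromosome X, had signals of 47.3, 73.2 and 99.1 in Trex1 WT and 52.9, 149 and 49.5 in Trex1 KO. Its pair differences of 0.12, 0.89 and -0.81 had no common direction, and the fitted value was 0.07 (95% interval -0.87 to 1.0, limma adjusted p = 0.995). Pair C, in which Tlr7 and Tlr8 were lower in the Trex1 KO animal, was also the pair with high Xist signals (6747 and 7569, against at most 119 on the other arrays), a transcript of females. Littermates within each pair did not differ in this respect.

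Myd88, the shared adaptor, was slightly higher in every Trex1 KO animal, by less than the test could call. Its signals were 463, 551 and 578 in Trex1 WT and 672, 686 and 687 in Trex1 KO. The Trex1 KO arrays lay close together (682 ± 8.27, SD, n = 3) and above every Trex1 WT array (531 ± 59.7, SD, n = 3). The log2 differences by pair were 0.52, 0.31 and 0.24, and the fitted value was 0.36 (SE 0.13, 95% interval 0.06 to 0.66), a fold of 1.28. The limma adjusted p was 0.827, and 0.484 with the replicate block. It ranked 374 by p among the tested genes.

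The surface receptors showed no call, and by their brightest probe sets the pairs disagreed in direction. Tlr2, which pairs with Tlr1 or Tlr6 to bind lipoproteins, had signals of 238, 234 and 205 in Trex1 WT and 224, 291 and 294 in Trex1 KO. The groups overlapped through pair A, and the log2 difference was 0.24 (95% interval -0.17 to 0.65, limma adjusted p = 0.955). Tlr5, the flagellin receptor, had signals from 52.5 to 137 in Trex1 WT and from 85.1 to 140 in Trex1 KO, with a difference of 0.26 (limma adjusted p = 0.97). Pair B alone held most of it, with 0.84 against -0.09 and 0.03 in pairs A and C.

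Tlr4, the receptor of lipopolysaccharide, gave different answers from its 4 probe sets. The brightest (1418162_at) had signals of 393, 606 and 458 in Trex1 WT and 566, 532 and 376 in Trex1 KO, which overlapped fully. Its log2 difference was 0.02 (95% interval -0.44 to 0.47, limma adjusted p = 0.997). A second (1418163_at), listed under the same accession, differed by 0.17 and also overlapped. A dimmer probe set (1442827_at), which the platform annotation lists under another accession, had signals of 110, 48.6 and 95.3 in Trex1 WT and 315, 219 and 173 in Trex1 KO. There the groups did not overlap, and the difference was 1.34 (95% interval 0.63 to 2.04, limma adjusted p = 0.297, and 0.118 with the block). The sources used here do not say which part of the Tlr4 locus 1442827_at measures. The intervals of the brightest and of this probe set did not overlap. With the mean of the tested Tlr4 probe sets the difference was 0.51 (limma adjusted p = 0.615). The last probe set (1430695_at) was below the brightness filter, with signals from 5.97 to 95.4 and a difference of 0.42.

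Tlr1 and Tlr6 were below the brightness filter. Tlr1 signals ran from 18.5 to 101 in Trex1 WT and from 10.4 to 95.5 in Trex1 KO, and Tlr6 signals from 8.77 to 55.2 and from 24.7 to 53. Both had their lowest Trex1 WT signal in animal C and their lowest Trex1 KO signal in animal B, so their pair differences swung from -2.15 to 1.69 and from -0.71 to 1.48. Fitted without the filter, they differed by -0.29 and 0.14 (limma adjusted p = 0.982 and 0.99).

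**Figure D2:**
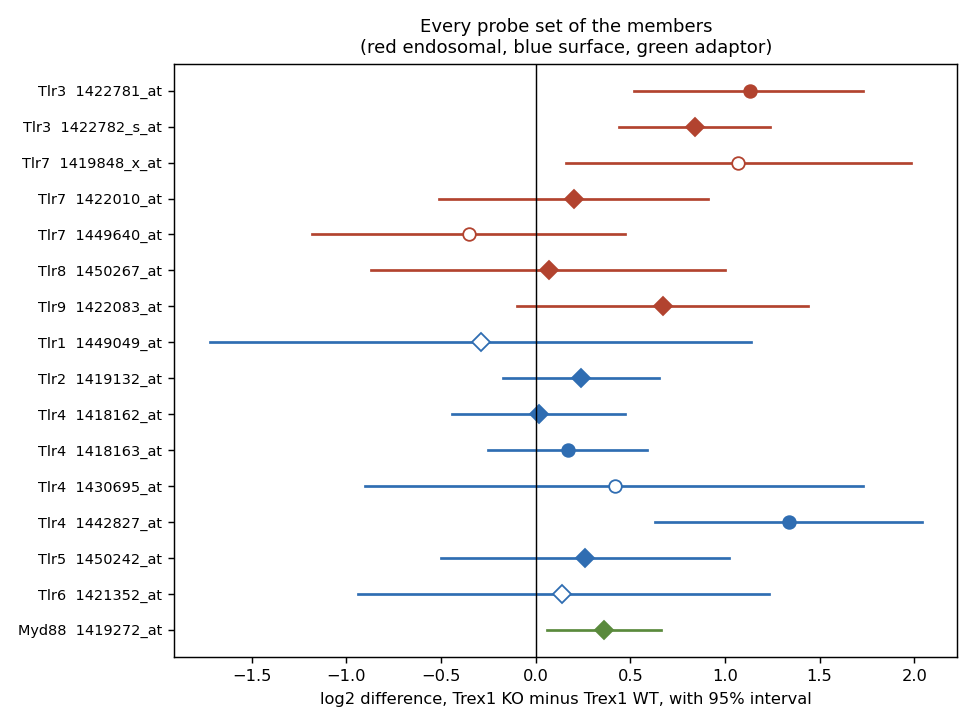
Log2 difference (Trex1 KO minus Trex1 WT) with its 95% limma interval for each of the 16 probe sets; diamonds are the brightest probe set of a gene, circles its others, and open symbols lie below the brightness filter and come from the fit without it. Both Tlr3 probe sets and the Tlr4 probe set 1442827_at have intervals above 0, around 0.84, 1.13 and 1.34, as do Myd88 at 0.36 and a dim Tlr7 probe set at 1.07, while the brightest Tlr4 probe set lies at 0.02.

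By class medians over all members, endosomal receptors stood higher than surface receptors in pairs A and B, and lower in pair C. Over all members of each class, whether or not bright enough to test, the median log2 difference was 0.44 for the 4 endosomal and 0.14 for the 5 surface receptors, against -0.02 over all genes with a probe set. By pair the endosomal medians were 0.71, 0.62 and 0.00, and the surface medians were -0.09, -0.18 and 0.49. The gap between the classes was therefore 0.80, 0.80 and -0.49. Tlr1 and Tlr6, both below the brightness filter, moved the surface medians in pairs B and C. In pair C they were at 1.69 and 1.48, against 0.49, -0.27 and 0.03 for Tlr2, Tlr4 and Tlr5. In pair B they were at -2.15 and -0.71, against 0.30, -0.18 and 0.84. By brightest probe set, 2 of the 4 endosomal receptors (Tlr3 and Tlr9) and 0 of the 5 surface receptors were higher in Trex1 KO in all 3 pairs. The share of all genes that did so was not counted, so these counts are not read as a difference between the classes. The dimmer Tlr4 probe set 1442827_at was also higher in every pair (1.39, 1.87 and 0.76). Across the 10 members 9 were above 0, where 46.3% of all 18193 genes with a probe set were.

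The gap between the classes depended on which members and arrays were included. It was 0.29 over all members, 0.06 without Tlr3, 0.20 without the dim Tlr1 and Tlr6, and -0.04 without all 3 of these. It was -0.22 when pair A was left out, -0.05 without Trex1 WT A, 0.10 without Trex1 KO B and 0.03 when adjusted for the Actb ratio. Tlr9, at 0.67 the endosomal receptor next below Tlr3, was not left out in turn. The smaller gap without Tlr3 is therefore not shown to be particular to Tlr3. The classes were compared as a description only, with no test.

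**Figure D3:**
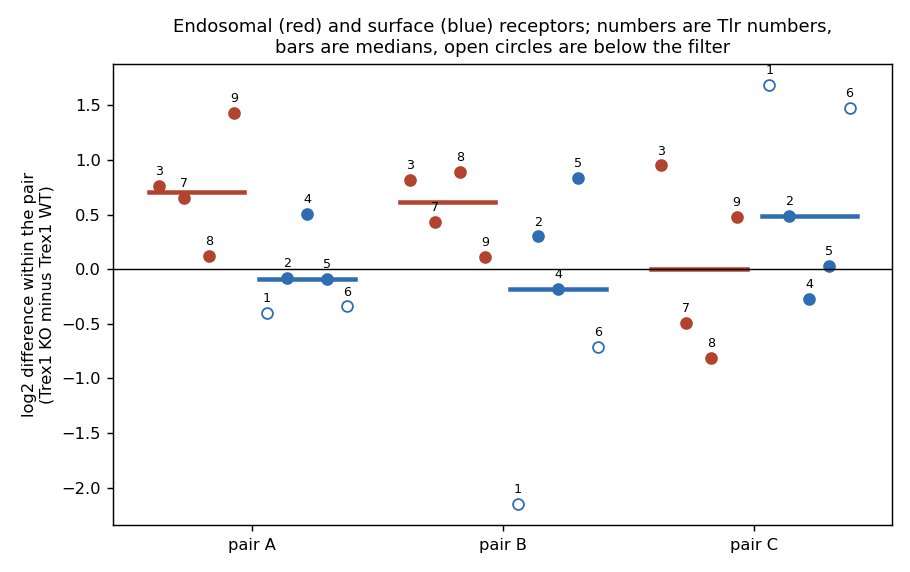
Log2 difference of each receptor within each littermate pair (Trex1 KO minus Trex1 WT), red for endosomal and blue for surface receptors, with Tlr numbers above the points and class medians as bars. The red bar lies above the blue in pairs A and B (0.71 and 0.62 against -0.09 and -0.18) and below it in pair C (0.00 against 0.49), and Tlr3 is the receptor near the same height in each pair. Tlr1 and Tlr6, below the brightness filter, are the lowest surface receptors in pairs A and B and the highest in pair C.

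Most genes that act with the receptors did not pass the test. Outside the members, 67 of 86 listed pathway genes were bright enough to test. Of these 2 rose (Irf7 and Usp18), 0 fell and 65 did not pass in limma, with a median log2 difference of 0.05. Among all 12811 tested genes 0.312% were called higher and 0.039% lower, with a median of -0.02. Irf7, the transcription factor through which Tlr7 and Tlr9 induce interferon alpha, had signals of 527, 716 and 760 in Trex1 WT and 2930, 5615 and 3874 in Trex1 KO. The groups did not overlap, and Irf7 rose by 2.57 on the log2 scale (SE 0.22, limma adjusted p = 0.000728). Usp18, a protease that restrains interferon receptor signalling, had 519, 772 and 660 in Trex1 WT and 5940, 7253 and 6786 in Trex1 KO and rose by 3.34 (SE 0.15, limma adjusted p = 6.54e-06). Both are themselves interferon-induced genes. With the Actb ratio as a covariate, Irf7 did not pass. That ratio was higher on every Trex1 WT array than on any Trex1 KO array, so such a fit can hardly separate it from genotype.

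Endosomal trafficking and processing showed no call among 13 tested genes, with a median of 0.04. Unc93b1, the chaperone that carries the nucleic acid receptors to endosomes, had signals of 576, 522 and 543 in Trex1 WT and 551, 854 and 544 in Trex1 KO, high in Trex1 KO B alone, with a difference of 0.21. Ctsl, a protease that cleaves receptors in endosomes, differed by 0.15 (limma adjusted p = 0.955). Dnase2a, a lysosomal nuclease that degrades DNA, had 313, 333 and 408 in Trex1 WT and 177, 270 and 305 in Trex1 KO. The Dnase2a groups did not overlap, and -0.48 was not a call (limma adjusted p = 0.917, or 0.491 blocked by pair).

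No partner, adaptor or related receptor passed. Of 6 tested surface partners 0 passed (median 0.14). Ly96, the partner of Tlr4, differed by 0.20 and Cd180, a Tlr4 relative of B cells and macrophages, by 0.43 (limma adjusted p = 0.958 and 0.956). Of the other adaptors with the TIR domain 0 of 3 passed. Ticam1, the adaptor of Tlr3, had a difference of -0.24 (limma adjusted p = 0.959) that came from Trex1 KO C alone, with pair differences of 0.12, 0.04 and -0.87. Pik3ap1 differed by 0.28. Of 4 tested receptors that signal through Myd88 0 passed. The interleukin receptor genes Il1r1 and Il18r1 differed by -0.72 and 0.76 (limma adjusted p = 0.842 and 0.955), with Il1r1 lower in pairs A and B and at 0.01 in pair C. Il18r1 had pair differences of 0.60, -0.57 and 2.23, and Trex1 WT C stood low with a signal of 13.

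Among kinases, ubiquitin ligases and transcription factors below the receptors, 1 of 19 tested genes rose (Irf7), and the median was -0.07 over the 20 with a probe set. Among inhibitors of the pathway, 1 of 10 tested genes rose (Usp18), and the median was 0.05 over the 11 with a probe set. Of the NF-kB target genes, 0 of 11 tested passed, and the median log2 difference was 0.41 over these 11 and 0.19 over all 16 with a probe set. Tnf, Il6, Il12b, Cxcl2 and Nos2 lay below the highest bacterial control on every array. The chemokine Ccl5 had signals of 92.3, 209 and 152 in Trex1 WT and 205, 424 and 308 in Trex1 KO, about the same step in each pair (1.03, 0.97 and 0.94). The fitted difference was 0.98 (limma adjusted p = 0.712, and 0.0775 with the block). Ccl2, a chemokine that attracts monocytes, differed by 1.23 (limma adjusted p = 0.862).

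Tlr11 to Tlr13 exist in mice and are not members of the set above. Tlr13, an endosomal receptor of bacterial ribosomal RNA, had signals of 111, 135 and 111 in Trex1 WT and 150, 183 and 205 in Trex1 KO. The groups did not overlap, and the difference of 0.53 did not pass (limma adjusted p = 0.89). Tlr12 lay below the highest bacterial control on every array.

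**Figure D4:**
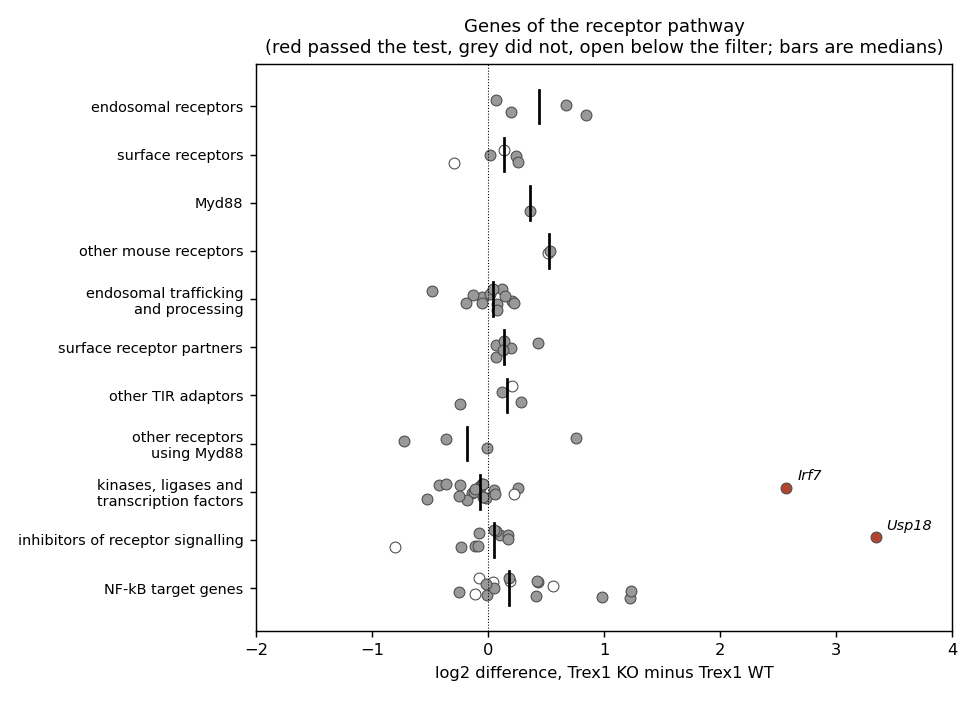
Log2 difference (Trex1 KO minus Trex1 WT) of each listed gene, a point per gene, grouped by its role; red points passed the limma test, grey did not, open points lie below the brightness filter, and bars are medians. Irf7 at 2.57 and Usp18 at 3.34 stand apart, and the other genes, among them Ccl2 at 1.23 and Il1r1 at -0.72, did not pass.

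The patterns most like that of Tlr3 over the 6 arrays, by Pearson correlation of log2 values, were those of Clec4n (0.995), Rbm43 (0.985), Haus5 (0.985), Sp100 (0.980) and Apod (0.978). Of these Apod passed the test, with a log2 difference of 1.77 (limma adjusted p = 0.0483). For Myd88 they were Trim14 (0.988), Nppa (0.987), Oas1c (0.986), Zbtb32 (0.980) and Gm5124 (0.976), and 0 of these 5 passed without the block. Nppa, the cardiac atrial natriuretic peptide, averaged 16165 on the Trex1 WT arrays against 31458 on the others (log2 difference 1.0, limma adjusted p = 0.126), and it rose with the block (limma adjusted p = 0.00886). Many genes correlated this closely over 6 arrays: 44 tested genes reached 0.95 with Tlr3 and 35 with Myd88. They share genotype and arrays, and are given as descriptions.

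Markers of the cells that can carry these receptors were compared on the same arrays. Cardiomyocyte markers were bright in every ventricle: Myh6 averaged 50557 and 50053 on the Trex1 WT and Trex1 KO arrays, Tnnt2 51292 and 50301, and all 7 lay above the highest bacterial control on every array. Their summed signal was 223366 to 285024 and 258327 to 289639. The summed signal of 10 monocyte and macrophage markers was 11057 to 17264 in Trex1 WT and 13288 to 18065 in Trex1 KO, which overlapped, and 0 of 10 passed (median log2 difference 0.28, with Csf1r at -0.15 and Lyz2 at 0.29). The neutrophil sums were 394 to 628 and 458 to 1514, with a median of 0.80. By pair the neutrophil medians were -0.47, 1.31 and 1.16, so pair A went the other way, as S100a8 (-0.57, 1.43 and 1.53) and S100a9 (-0.36, 1.66 and 1.38) did. Natural killer sums were 552 to 857 and 732 to 2245 (median 0.61). Gzma was at 0.96, Nkg7 at 0.76, Eomes at 0.61, Klrd1 at 0.24 and Ncr1 at -0.08. By pair the natural killer medians were 0.05, 0.93 and 0.21. Gzma read 1582 in Trex1 KO B, against 381 and 649 on the other Trex1 KO arrays. Endothelial sums were 9525 to 12725 and 9236 to 10842 (median -0.16). Kdr was at -0.27, Tek at -0.36, Cdh5 at -0.26 and Tie1 at -0.06, while Pecam1 at 0.04 and Egfl7 at 0.15 lay above 0. Fibroblast sums were 31272 to 39680 and 35667 to 38686, with Dcn at 0.16 and Lum at -0.13. Adipocyte sums were 28990 to 36709 and 30510 to 34795, with Fabp4 at 0.00 and Adipoq at 1.77. Nearly all of each adipocyte sum was Fabp4 (mean signals 32968 and 32887). Cidec and Lep lay below the highest bacterial control on every array, and Adipoq did so on every array except Trex1 KO C. Adipoq read 549 in Trex1 KO C, against 66.3 and 62.5 on the other Trex1 KO arrays. Of 4 B cell genes 0 and of 4 T cell genes 1 were bright enough to test, with Cd79a, Cd79b, Cd3d and Cd3e below the highest bacterial control on every array. B cell sums were 93.2 to 206 and 110 to 275, with a median of -0.09, Pax5 at -0.43, Cd79a at 0.25 and Ms4a1 at 0.80, and T cell sums 111 to 261 and 84.4 to 273, with Cd3g at -0.16 and Cd8a at -0.29. Dendritic cell sums were 6035 to 7398 and 7174 to 8682, with a median of -0.16 and Tcf4 at -0.02. Most of each dendritic cell sum was Tcf4 (mean signals 4925 and 4824), and the higher Trex1 KO sums came mainly from Bst2. Of these markers Bst2, also an interferon-induced gene, had mean signals of 1016 and 2343 (log2 difference 1.17) and rose with the block (limma adjusted p = 0.0089). Flt3 at -0.51 and Zbtb46 at -0.13 lay on the other side of 0. The dendritic cell markers Xcr1, Siglech and Ccr9 were below the highest bacterial control on every array. The part of these cells in the Tlr3 and Myd88 values was not tested.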

How the data were processed

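Ventricle RNA from 6 mice was labelled with biotin and measured on 1-colour Affymetrix-type arrays, 1 per mouse. The deposited values are the authors' linear signal intensity per probe set; the submitters' processing notes name MAS5, with no version. The trimmed mean (2% off each end) was 500.0 on every array, so the arrays were used as scaled by the authors. Signals became log2(signal + 16), and probe sets at or above the 40th percentile of the mean were tested (27022 of 45037) with limma 3.58.1 in R 4.3.3 (lmFit and eBayes with an intensity trend, two-sided, Benjamini-Hochberg). The code was tested on simulated data. Symbols came from the platform annotation, and the brightest probe set with a single symbol stood for a gene. Named genes are all members, the genes of each list that passed or else the 2 with the smallest p, the 5 most correlated with Tlr3 and Myd88 and the 2 brightest markers of each cell type. Unc93b1, Tlr12, Flt3, Zbtb46, Ms4a1 and the genes listed as below the controls were named after their values were seen. So were Nkg7, Eomes, Ncr1, Cdh5, Tie1, Pecam1 and Egfl7. Members and lists were chosen with earlier results of these data known.

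Littermates are named in the series' design text. Deviations from group means correlated at 0.151, 0.192 and 0.147 within pairs and at most at 0.0101 for other combinations, across probe sets. The deviations of a group cancel out for each probe set, so a positive value within a pair forces lower values for the other combinations.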

Additional observations from a re-analysis of the deposited data

How the results depend on the processing

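The count of 0 members called higher became 1 (Tlr3) with littermate pairs as a replicate block, and stayed at 0 under the other 17 alternatives (pseudocounts of 1 and 64, no filter or the 60th percentile, no intensity trend, quantile normalization, the Actb ratio, the mean of a gene's probe sets, and leaving out each array or pair). The count of members called lower was 0 under all 18. The block changed no other member's call. Tlr3 lay between 0.70 and 1.23 in all 18, and Myd88 between 0.26 and 0.42. At the 60th percentile Tlr5, Tlr7, Tlr8 and Tlr9 were not tested. Some values changed sign, and the cause was not tested. With the Actb ratio, Tlr8 went from 0.07 to -0.62 and Tlr5 from 0.26 to -0.69. With both arrays of a pair left out, Tlr7 was -0.03 and Tlr4 -0.23 (pair A), and Tlr8 -0.35 and Tlr5 -0.03 (pair B). Tlr4 was 0.51 with the mean of a gene's probe sets. Leaving out single arrays, Tlr9 ran from 0.31 to 0.88, Tlr7 from 0.01 to 0.56, Tlr4 from -0.12 to 0.19, Tlr5 from -0.05 to 0.54 and Tlr8 from -0.37 to 0.30. With the Actb ratio the pathway list of kinases, ligases and transcription factors had 0 calls in place of 1 (Irf7). The gap between the receptor classes ran from -0.22 to 0.55; the alternatives that left members out of it were chosen after seeing the data. Signals near the bacterial controls limit what can be said of Tlr1, Tlr5, Tlr6, Tlr8 and Tlr9, and the number of arrays limits every value.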

Other observations

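Tlr9 and Myd88 lie on chromosome 9, which also carries Trex1. In the gene order of GRCm38.p6, 66 tested genes lay between Tlr9 and Trex1, and 60 between Myd88 and Trex1. The tested genes within 5 places of each member were looked up after the members' values were seen. Around Tlr9, Pik3r4 and Wdr82 fell, with mean signals of 621 and 240 and of 1341 and 607 in Trex1 WT and Trex1 KO (log2 differences -1.31 and -1.11, limma adjusted p = 0.0256 and 0.0274). They stood 5 and 3 tested genes away. The nearest tested genes on either side of Tlr9, Twf2 and Alas1, were at -0.38 and 0.02 (limma adjusted p = 0.457 and 0.995, neither called), and Tlr9 itself was at 0.67. Around Myd88, 0 of 10 neighbours passed; Itga9, an integrin subunit 5 tested genes away, had the largest of these differences, with 1.30 (limma adjusted p = 0.258).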
